A study of Homo sapiens with 36 samples.

Results

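RNA was measured in K562 cells in which LMO2 protein had been marked for breakdown for 4 days. Of the 36 samples of the series, the 16 taken on day 0 and day 4 of the LMO2 degron set were chosen by their labels. K562 is a human cell line from a chronic myeloid leukemia and carries some red cell traits. Degron lines 1 and 2 are labelled LMO2 degron rep 1 and rep 2 and are read here as lines. Their samples came from cells of day 0 without dTAGv1 and from cells with dTAGv1 for 4 days. The control lines were a line labelled LMO2 control and the parental K562 line, sampled in the same way, also with dTAGv1 until day 4. Each line and day had 2 samples, labelled bio rep 1 and bio rep 2. The labels give dTAGv1 at 750 uM, where the unit is uncertain, and 0 on day 0. The sources used here do not say what the LMO2 control line carries or whether each line is a clone.

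LMO2 is an adaptor protein without DNA contact of its own. In red cell precursors it is held in a complex with LDB1, which joins complexes to each other, with the E-box binding factors TAL1 and TCF3, and with GATA1, and this complex sits at many erythroid genes. A degron is a tag through which a small molecule such as dTAGv1 brings an E3 ubiquitin ligase to a protein, so that the protein is degraded while its gene is still transcribed. KLF1, a transcription factor of red cell precursors, switches on globin, heme and membrane genes.

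The change reported below is the mean of day 4 minus day 0 over the degron lines, minus the same mean over the control lines, in log2(FPKM + 1), and is called the degron-specific change. A gene is said to rise or fall by this value, so a change in the control lines is part of it. FPKM are fragments scaled to transcript length and library size. They are shares of a library, so comparing levels between samples assumes a similar makeup of the libraries. The main fit applied no further scaling between samples. Changes carry ± the standard error, each adjusted p comes from limma with Benjamini-Hochberg adjustment over all 15348 genes tested, and a gene is called higher or lower at an adjusted p under 0.05. Values separated by "and" for 1 line and day are bio rep 1 and bio rep 2.

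LMO2 RNA itself stood on day 4 at 155 and 271 FPKM in degron line 1 and at 234 and 265 FPKM in degron line 2, against 132 and 146 FPKM in line 1 and 135 and 157 FPKM in line 2 on day 0. It was 286 and 443 FPKM on day 4 and 248 and 252 FPKM on day 0 in the LMO2 control line, and 37.9 and 44.2 FPKM on day 4 and 37.2 and 32.3 FPKM on day 0 in parental cells. Its degron-specific change was 0.29 ± 0.34 (limma, adjusted p = 0.595), and since the degron acts on protein, RNA does not show whether LMO2 protein was lost. The erythroid identity markers of K562 were present throughout: GATA1 ran from 51.9 to 170.3 FPKM, TAL1 from 10.2 to 36.4 FPKM and HBG1 from 13.4 to 265.6 FPKM over the 16 samples. Depth recovered from the FPKM steps ran from 17.2 to 24.4, in units of 1000000 fragments. Markers of other cell types are given beside the myeloid genes.

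In all, 3040 of 15348 genes were called on day 4, which is 19.8% of those tested, with 1784 higher (11.6%) and 1256 lower (8.18%). At least 2-fold changes made up 344 of the higher and 386 of the lower genes. The median change of all genes tested was 0.06. All 3040 had 1 sign in bio rep 1 and bio rep 2, which is likely for calls made from these same samples and is no separate support. All 4 degron samples of day 4 lay above the other 12 samples for 1550 of the genes called higher and below them for 877 of those called lower. Without any call, such separation was seen for 2986 (19.5%) and 1590 (10.4%) of all genes tested. A block for the bio rep number brought the calls to 5471, of which 3080 were higher and 2391 lower, and the 3040 were among them. Within the control lines the change from day 0 to day 4 gave 0 called genes in the LMO2 control line (214 at an unadjusted p under 0.05 in limma) and 0 in parental cells (380). The median control change was 0.03 among genes called higher and 0.04 among genes called lower, but single genes moved more. A total of 549 genes reached the filter of 1 FPKM in 2 samples only through the degron samples of day 4. Of these, 198 were called higher, and such genes had to be higher to be tested.

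The promoters of KLF1, HEMGN, PKLR, HBM and GFI1B, which fell, and of ALAS1 and CTSC, which rose, are shown because the complex is known to bind a GATA site next to an E-box. They were chosen after values and matches were seen. Each line gives the RefSeq window of build GRCh38.p14 from 250 bases before to 50 bases after a gene start, read along the gene. Capitals mark GATAA, or CTG followed after 8 to 10 bases by GATA, on either strand, and overlapping matches are joined.
KLF1, chr19:12887152-12887451, minus strand: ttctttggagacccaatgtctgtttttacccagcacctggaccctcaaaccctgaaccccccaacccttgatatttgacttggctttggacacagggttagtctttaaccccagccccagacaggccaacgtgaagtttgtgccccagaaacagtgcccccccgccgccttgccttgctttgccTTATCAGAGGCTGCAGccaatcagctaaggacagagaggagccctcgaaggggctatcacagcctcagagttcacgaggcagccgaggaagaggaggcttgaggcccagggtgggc
HEMGN, chr9:97938123-97938422, minus strand: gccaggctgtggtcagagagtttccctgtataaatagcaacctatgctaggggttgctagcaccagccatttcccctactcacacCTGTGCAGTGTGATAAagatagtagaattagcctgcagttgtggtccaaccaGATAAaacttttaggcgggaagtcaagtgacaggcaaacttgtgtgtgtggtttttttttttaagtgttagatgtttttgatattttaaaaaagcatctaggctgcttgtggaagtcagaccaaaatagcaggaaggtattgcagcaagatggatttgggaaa
PKLR, chr1:155301389-155301688, minus strand: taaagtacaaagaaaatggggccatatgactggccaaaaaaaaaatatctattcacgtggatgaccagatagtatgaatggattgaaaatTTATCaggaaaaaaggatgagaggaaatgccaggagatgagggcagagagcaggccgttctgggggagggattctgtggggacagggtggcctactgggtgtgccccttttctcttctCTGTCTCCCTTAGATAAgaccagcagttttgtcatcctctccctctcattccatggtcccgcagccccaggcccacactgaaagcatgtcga
HBM, chr16:165728-166027, plus strand: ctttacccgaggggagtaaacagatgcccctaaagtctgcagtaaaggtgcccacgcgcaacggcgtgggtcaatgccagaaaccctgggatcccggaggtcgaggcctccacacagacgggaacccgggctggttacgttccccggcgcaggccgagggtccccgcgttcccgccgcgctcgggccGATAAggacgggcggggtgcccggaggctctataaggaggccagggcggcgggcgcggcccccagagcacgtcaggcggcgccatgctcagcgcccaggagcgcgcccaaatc
GFI1B, chr9:132978444-132978743, plus strand: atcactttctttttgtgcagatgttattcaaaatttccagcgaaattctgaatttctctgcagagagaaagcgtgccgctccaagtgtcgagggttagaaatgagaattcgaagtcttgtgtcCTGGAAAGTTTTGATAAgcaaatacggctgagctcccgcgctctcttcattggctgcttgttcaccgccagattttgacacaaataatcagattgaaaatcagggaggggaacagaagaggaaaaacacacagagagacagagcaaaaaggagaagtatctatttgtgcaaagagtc
ALAS1, chr3:52197833-52198132, plus strand: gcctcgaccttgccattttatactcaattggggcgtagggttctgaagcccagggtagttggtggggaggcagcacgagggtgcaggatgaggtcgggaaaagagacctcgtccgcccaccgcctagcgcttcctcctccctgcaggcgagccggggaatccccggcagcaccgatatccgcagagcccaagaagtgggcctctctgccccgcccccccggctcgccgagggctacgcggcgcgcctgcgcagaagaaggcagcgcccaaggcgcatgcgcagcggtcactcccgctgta
CTSC, chr11:88337687-88337986, minus strand: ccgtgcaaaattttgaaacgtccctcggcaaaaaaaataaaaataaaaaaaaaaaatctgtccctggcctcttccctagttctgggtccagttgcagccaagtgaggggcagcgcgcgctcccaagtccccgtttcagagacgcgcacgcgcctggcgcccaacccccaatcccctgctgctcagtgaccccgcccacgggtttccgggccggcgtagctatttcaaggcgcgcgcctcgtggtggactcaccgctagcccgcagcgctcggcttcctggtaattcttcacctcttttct
The KLF1 window has 1 match of each motif, and they overlap, at bases 185 to 189 and 186 to 200, both on the minus strand of the window. In PKLR (bases 209 to 224) and GFI1B (bases 124 to 139) the CTG and GATA pair also overlaps a GATAA. In the HEMGN window the pair stands at bases 86 to 100, and GATAA at bases 97 to 101 and 138 to 142. HBM has GATAA alone, at bases 188 to 192. A further window of HEMGN holds 1 match of each motif, while the further windows of PKLR and GFI1B hold 0. No match stands in the ALAS1 and CTSC windows.

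Motif shares were then set side by side for larger groups, with no test. Of the 12 largest falls (named below) 8 genes had a window. GATAA stood in 6 of these (75%), in EGFL7, FAM178B, HBM, HEMGN, KLF1 and PKLR, and the CTG and GATA pair in 3 (37.5%), in HEMGN, KLF1 and PKLR. Of the 12 largest rises 8 genes had a window, with GATAA in 1 (12.5%), CCL24, and the pair in 0. Among all tested genes with a window, 1674 of 9105 (18.4%) held GATAA and 435 (4.78%) held the pair. The shares among all called genes lay near these: 17.8% of genes called lower and 19.8% of genes called higher held GATAA, and 4.96% and 5.26% held the pair. Windows cover only the region at the gene start.

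KLF1 stood apart among the transcription factors. On day 4 it was at 22.5 and 21.1 FPKM in degron line 1 and at 5.11 and 4.30 FPKM in degron line 2, against 133 and 109 FPKM in line 1 and 95.8 and 71.3 FPKM in line 2 on day 0. Its 8 control samples ran from 91.3 to 149 FPKM, with a median of 123. Every degron sample of day 4 was far below the other 12, and line 2 below line 1 (change -3.02 ± 0.20, limma adjusted p = 7.56e-07). NFE2, which acts late in red cells and platelet precursors, was at 29.6 and 28.7 FPKM in line 1 and 26.5 and 22.3 FPKM in line 2 on day 4, against 89.6 and 86.7 FPKM and 85.8 and 83.2 FPKM on day 0. NFE2 was level across the control lines (69.2 to 90.7 FPKM, median 78.2), and its change was -1.57 ± 0.18 (limma, adjusted p = 5.36e-05). GFI1B, a repressor needed for red cell and platelet formation, was at 4.07 and 3.13 FPKM and at 2.11 and 2.10 FPKM on day 4, against 10.5 and 8.26 FPKM and 8.16 and 6.98 FPKM on day 0, and at 9.17 to 15.2 FPKM in the control lines. It fell by 1.15 ± 0.18 (limma, adjusted p = 0.00061). NFE2L1, a relative of NFE2 that responds to proteasome stress, moved the other way, to 55.5 and 60.8 FPKM in line 1 and 68.7 and 81.0 FPKM in line 2 on day 4, against 28.9 to 33.4 FPKM in degron lines on day 0 (change 0.99 ± 0.12, limma adjusted p = 7.25e-05). Of 14 tested erythroid transcription factors 4 were called lower and 1, NFE2L1, higher (4 and 3 with the bio rep block). Beside them MYB, a factor of dividing precursors that is named after its values were seen, was the remaining fall (-0.88 ± 0.28, limma adjusted p = 0.0368), with a call that was lost in 11 of the 16 fits that left out 1 sample, degron and control samples alike (limma, adjusted p up to 0.0925). The list's median change was 0.08.

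Partners of LMO2 moved in both directions. Of 20 tested members of the complex and its partners, 5 were called lower and 5 higher, with a median change of -0.03. LDB1 stood on day 4 at 46.2 and 40.8 FPKM in line 1 and 39.1 and 31.9 FPKM in line 2, against 90.6 and 74.0 FPKM and 73.2 and 70.1 FPKM on day 0, and at 79.7 to 107 FPKM in the control lines (median 88.6). It fell by 0.89 ± 0.17 (limma, adjusted p = 0.002). GATA1 was at 80.3 and 91.3 FPKM in line 1 and 54.4 and 51.9 FPKM in line 2 on day 4, against 136 and 127 FPKM and 119 and 114 FPKM on day 0, and at 135 to 170.3 FPKM in the control lines. Both falls separated all degron samples of day 4 from the other 12 samples. GATA1 fell by 0.86 ± 0.13 (limma, adjusted p = 0.000308), and TCF3, the E protein that pairs with TAL1, by 0.67 ± 0.13 (adjusted p = 0.00237). SSBP2, which protects LDB1 from breakdown, rose by 0.84 ± 0.15 (limma, adjusted p = 0.00126), to 5.83 and 6.05 FPKM in line 1 and 7.25 and 8.68 FPKM in line 2 on day 4, against 2.94 to 3.65 FPKM in degron lines on day 0. TAL1 was at 10.2 to 14.6 FPKM in degron lines on day 4 and 17.0 to 22.2 FPKM on day 0, but the control lines spread from 12.9 to 36.4 FPKM and its change was -0.33 ± 0.40 (limma, adjusted p = 0.614).

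The globins HBZ, HBQ1 and HBM fell and the adult delta globin rose. HBZ, the embryonic zeta globin, was at 6.07 and 13.5 FPKM in line 1 and 2.65 and 5.02 FPKM in line 2 on day 4, against 192 and 92.6 FPKM and 145 and 49.5 FPKM on day 0. The control lines ran from 81.0 to 408 FPKM, with a median of 225, so the groups did not overlap although bio rep 1 lay above bio rep 2 in every line on day 0. The change of HBZ was -3.52 ± 0.73 (limma, adjusted p = 0.00378). HBQ1, the theta globin, was at 15.2 and 14.1 FPKM and at 7.49 and 5.64 FPKM on day 4, against 76.0 and 47.8 FPKM and 69.1 and 39.5 FPKM on day 0 (change -2.23 ± 0.38, limma adjusted p = 0.000963). HBM, the mu globin, fell by 3.32 ± 0.80 (adjusted p = 0.00941), to between 1.02 and 6.69 FPKM in degron lines on day 4. HBD, the delta globin, stood at 10.4 and 14.7 FPKM in line 1 and at 25.2 and 45.3 FPKM in line 2 on day 4, against 4.58 and 4.87 FPKM and 7.33 and 7.01 FPKM on day 0. It never passed 8.83 FPKM in the control lines and rose by 1.72 ± 0.30 (limma, adjusted p = 0.00105). Over the 10 tested globins and chaperones 5 were called lower and 1 higher, and 8 and 1 with the bio rep block, with a median change of -1.94. HBE1, the embryonic epsilon globin, was not called (-0.82, limma adjusted p = 0.26, or 0.00808 with the block). The other 2 lower calls, HBA1 (-2.40 ± 0.71, limma adjusted p = 0.0269) and HBA2 (-2.39 ± 0.80, adjusted p = 0.0488), are named after their values were seen. Their calls were lost in 8 and 11 of the 16 fits without 1 sample, degron and control samples alike (limma, adjusted p up to 0.0735 for HBA1 and 0.126 for HBA2), and their reads can be split between near-identical copies, as can those of HBG1 and HBG2.

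Genes of heme synthesis were called in both directions. ALAS1, the first enzyme of the pathway in cells other than red cells, stood at 68.7 and 79.7 FPKM in line 1 and 145 and 228 FPKM in line 2 on day 4, against 14.7 and 14.6 FPKM and 19.9 and 27.2 FPKM on day 0, and at 9.51 to 20.7 FPKM in the control lines (median 14.1). It rose by 2.36 ± 0.38 (limma, adjusted p = 0.000634). ALAS2, the red cell enzyme of the same step, was at 27.9 to 102 FPKM in degron lines on day 4, against 155 to 313 FPKM on day 0, but the control lines spread from 25.02 to 279 FPKM. Its change was -1.09 ± 1.00 (limma, adjusted p = 0.485). ALAD, the enzyme after both, rose by 1.03 ± 0.14 (adjusted p = 0.000213), to 17.9 and 18.7 FPKM and 19.7 and 22.5 FPKM on day 4 against 8.18 to 9.81 FPKM on day 0. UROD, a later enzyme that trims uroporphyrinogen, fell by 1.24 ± 0.12 (limma, adjusted p = 1.14e-05). It was at 35.5 and 44.5 FPKM in line 1 and 26.6 and 28.1 FPKM in line 2 on day 4, against 89.8 and 87.2 FPKM and 71.4 and 60.0 FPKM on day 0. GLRX5, which serves iron-sulfur cluster formation in mitochondria, fell by 0.75 ± 0.14 (adjusted p = 0.00187). In all, 3 of 16 tested members were called higher and 3 lower (3 and 5 with the block), with a median of -0.56. In the iron list 1 of 14 was called, TFRC, the transferrin receptor, which fell by 0.97 ± 0.23 (limma, adjusted p = 0.00757), against 1 higher and 3 lower with the block.

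Some genes of the red cell skeleton and some late erythroid genes fell. SPTB, the spectrin beta chain under the red cell membrane, was at 1.10 and 1.20 FPKM and at 1.27 and 0.755 FPKM on day 4, against 6.98 and 7.31 FPKM and 6.52 and 7.06 FPKM on day 0, and at 7.10 to 13.4 FPKM in the control lines. Its change was -1.90 ± 0.27 (limma, adjusted p = 0.000247). GYPC, a glycophorin that anchors the skeleton, fell by 1.48 ± 0.39 (adjusted p = 0.0152), and RHD, a blood group antigen whose reads can be shared with its near copy RHCE, by 2.46 ± 0.54 (adjusted p = 0.00507). Of 22 tested membrane and blood group genes 5 were called lower and 0 higher (10 and 0 with the block), with a median of -0.71. Among 16 late erythroid genes and enzymes 3 fell (6 with the block) and 2 rose. PKLR, the pyruvate kinase of red cells, was at 2.04 and 3.26 FPKM and at 0.940 and 0.661 FPKM on day 4, against 53.9 and 28.4 FPKM and 22.8 and 9.15 FPKM on day 0, and at 26.5 to 105 FPKM in the control lines (median 73.4). HEMGN, a nuclear protein of blood precursors, was at 1.93 and 1.80 FPKM and at 1.27 and 0.807 FPKM on day 4, against 53.8 and 30.2 FPKM and 23.5 and 12.5 FPKM on day 0. FAM178B followed the same course, between 0.694 and 1.28 FPKM on day 4 and between 8.72 and 45.0 FPKM on day 0 in degron lines. HEMGN, FAM178B and PKLR were already lower in degron lines than the control medians on day 0 (121 FPKM for HEMGN, 104 FPKM for FAM178B), and changed by -3.21 ± 0.79, -3.26 ± 0.65 and -2.86 ± 0.69 (limma, adjusted p = 0.0102, 0.00292 and 0.00891). SELENBP1, a selenium-binding protein of late erythroid cells, rose by 1.01 ± 0.16 (limma, adjusted p = 0.000586).

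**Figure D1:**
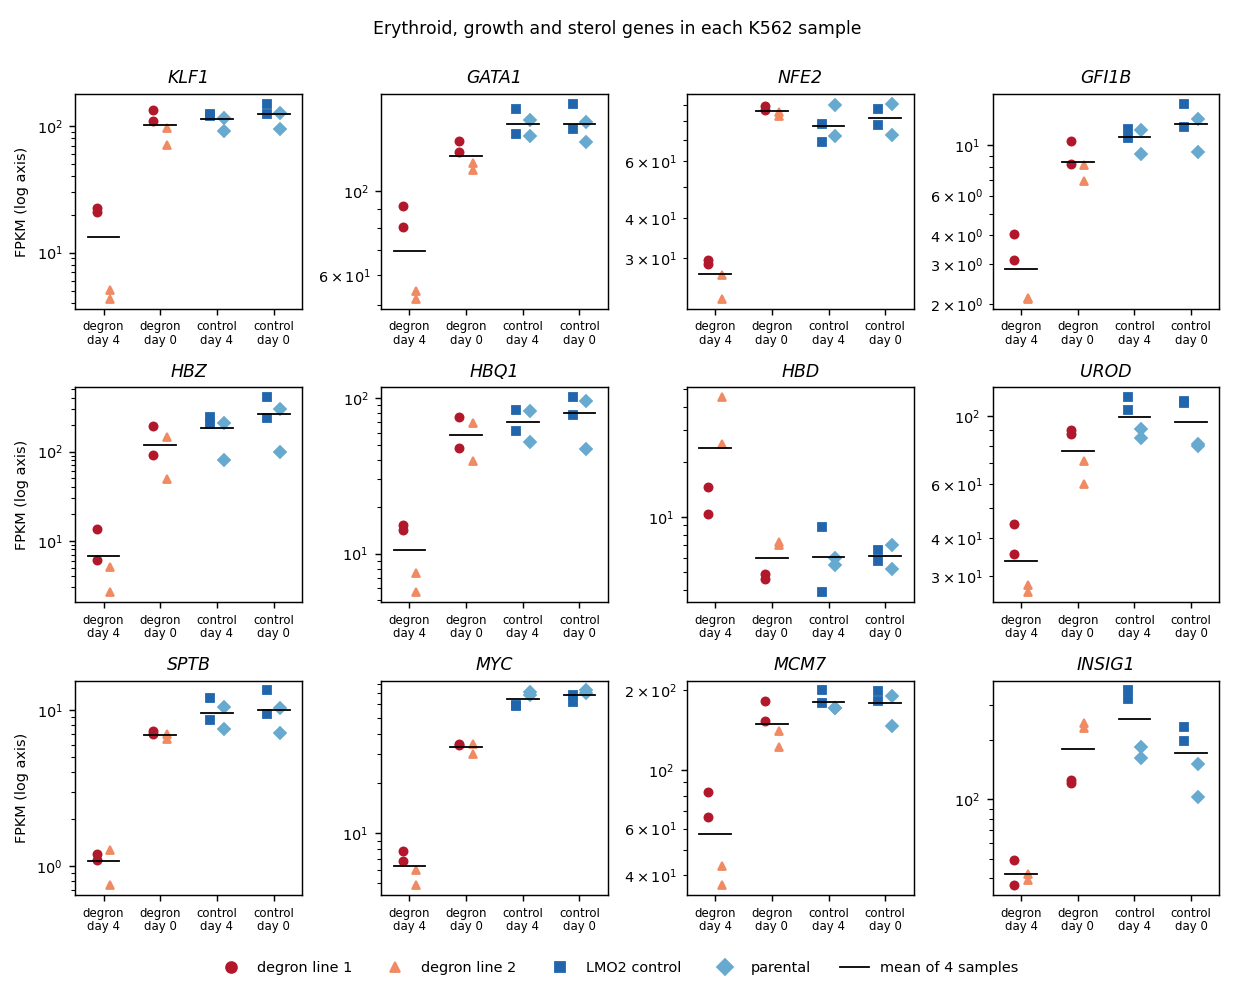
FPKM on a log axis of 12 genes in each of the 16 samples, with degron lines on day 4 and day 0 and control lines on day 4 and day 0 from left to right; symbols mark the line and bars the mean of 4 samples. KLF1 lay between 4.30 and 22.5 FPKM in degron lines on day 4, against 91.3 FPKM or more in the control lines, MYC already differed on day 0, and HBD alone of the 12 was higher.

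The other genes among the 12 largest falls were not erythroid by the lists. EGFL7, a secreted factor of vessels, was at 49.5 and 19.8 FPKM in line 1 and 47.1 and 18.9 FPKM in line 2 on day 4, against 169 and 149 FPKM and 281 and 174 FPKM on day 0, but the control lines ran from 39.9 to 182 FPKM and overlapped the day 4 values. MIR126, a microRNA gene that lies within EGFL7, changed by -4.96 ± 0.78 (limma, adjusted p = 0.000563), and EGFL7 by -3.24 ± 0.51 (adjusted p = 0.000585). Part of both values was a rise in the control lines, of 0.97 for MIR126 and 0.66 for EGFL7. Within degron lines 1 and 2 MIR126 changed by -2.41 and -5.58, and EGFL7 by -2.30 and -2.84. Some reads may be shared by the 2 genes, but their values were separate. In degron line 2 on day 4, bio rep 2, MIR126 was at 0 FPKM and EGFL7 at 18.9 FPKM. FPKM of this kind do not measure the mature microRNA. CFAP161, a protein of cilia, was at 1.88 to 2.94 FPKM on day 4 in degron lines and at 9.41 to 18.6 FPKM on day 0, while the control lines stood at 0.356 to 3.62 FPKM (change -2.56 ± 0.47, adjusted p = 0.00178). So it fell only to the level that control lines had throughout. AP001531.1 and AC003093.1, which the table lists by clone name, changed by -4.31 ± 0.46 (limma, adjusted p = 2.77e-05) and -2.84 ± 0.56 (adjusted p = 0.0027). CDC42EP1, an effector of the GTPase CDC42 named after its values were seen, fell by 2.51 ± 0.14 (adjusted p = 2.08e-07), to 1.13 to 3.15 FPKM in degron lines on day 4, against 15.5 to 23.7 FPKM on day 0.

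MYC fell, and so did many ribosomal protein genes and some nucleolar genes. MYC, a transcription factor that drives growth, stood at 6.81 and 7.85 FPKM in line 1 and 4.86 and 5.96 FPKM in line 2 on day 4, against 33.9 and 34.5 FPKM and 34.7 and 29.97 FPKM on day 0. The control lines were at 58.3 to 73.1 FPKM (median 68.4), so degron lines already lay below them on day 0. The change of MYC was -2.14 ± 0.22 (limma, adjusted p = 2.15e-05). MNT, which competes with MYC for its partner MAX, rose by 0.49 ± 0.12 (adjusted p = 0.0107), and of 13 tested genes of the MYC network 3 were called lower and 1 higher. FBL, the methyltransferase of the nucleolus, was at 84.7 and 96.5 FPKM and at 54.0 and 60.0 FPKM on day 4, against 185 and 221 FPKM and 143 and 172 FPKM on day 0, and at 202 to 272 FPKM in the control lines. It fell by 1.35 ± 0.15 (limma, adjusted p = 3.68e-05). Of 27 nucleolar and ribosome biogenesis genes 6 were called lower and 0 higher (21 lower and 1 higher with the block), with a median of -0.74. Of 30 cytosolic ribosomal proteins 18 were called lower and 0 higher (28 and 0 with the block), with a median of -0.59. RPS19, a small subunit protein, was at 132 and 144 FPKM in line 1 and 92.3 and 97.2 FPKM in line 2 on day 4, against 273 and 265 FPKM and 248 and 217 FPKM on day 0, and fell by 0.93 ± 0.17 (limma, adjusted p = 0.00128). RPL35, a large subunit protein, fell by 0.71 ± 0.11 (adjusted p = 0.000486). Many ribosomal protein genes have processed copies, among which reads can be split.

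Replication and mitosis had the largest shares of lower calls among lists with at least 10 tested members. Of 29 S phase and replication genes 23 were called lower and 0 higher, with a median of -0.92, against 8.18% lower among all genes tested. MCM7, a subunit of the replicative helicase, was at 66.3 and 82.8 FPKM in line 1 and 43.2 and 36.7 FPKM in line 2 on day 4, against 153 and 182 FPKM and 122 and 139.7 FPKM on day 0, and at 146 to 199.5 FPKM in the control lines. MCM7 fell by 1.44 ± 0.16 (limma, adjusted p = 5.08e-05). TK1, the thymidine kinase made in S phase, fell by 1.22 ± 0.14 (adjusted p = 6.11e-05), and POLE, the leading strand polymerase, by 0.92 ± 0.12 (adjusted p = 0.000104). Of 27 genes of mitosis 20 were called lower and 0 higher, with a median of -1.01. AURKA, a kinase of the spindle poles, was at 22.6 and 25.4 FPKM and at 18.6 and 17.6 FPKM on day 4, against 45.4 and 43.4 FPKM and 40.5 and 43.5 FPKM on day 0, and at 50.3 to 60.4 FPKM in the control lines (change -1.01 ± 0.11, limma adjusted p = 3.53e-05). MYBL2, an activator of late cell cycle genes, fell by 1.43 ± 0.18 (adjusted p = 0.000121). Of 16 histone genes 5 were called lower (8 with the block) and 0 higher, or 4 of 14 (7 with the block) without H2AZ1 and H3-3B, variants made outside S phase too. H2BC4 among the 14 was at 15.2 and 21.3 FPKM and at 12.5 and 17.8 FPKM on day 4, against 40.2 to 61.5 FPKM on day 0 in degron lines (change -1.35 ± 0.28, limma adjusted p = 0.00361).

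Of 18 CDK inhibitors, D cyclins, their kinases and G0 genes, 2 were called higher (11.1%, against 11.6% of all genes tested) and 0 lower, or 3 and 2 with the block. CDKN1A, the inhibitor p21, stood at 15.8 and 19.97 FPKM in line 1 and 12.7 and 27.9 FPKM in line 2 on day 4, against 7.11 and 5.47 FPKM and 3.58 and 3.43 FPKM on day 0, and at 1.37 to 4.22 FPKM in the control lines. It rose by 1.37 ± 0.35 (limma, adjusted p = 0.0123), a call lost with degron line 1 alone and with parental cells as the only control. Of 17 p53 targets 3 were called higher (6 with the block) and 1 lower (4 with the block), with ZMAT3 up by 1.02 ± 0.19 (limma, adjusted p = 0.00186). GADD45A, a stress gene of the same list, fell by 1.37 ± 0.20 (adjusted p = 0.000304), to 24.6 to 28.5 FPKM in degron lines on day 4 against 61.5 to 79.8 FPKM on day 0. K562 cells are known to lack working p53. Of 18 BCL2 family genes 3 were called higher and 3 lower (4 and 6 with the block), or 2 and 3 of 17 without BCL2A1, which passed the filter only through the degron samples of day 4. PMAIP1, a killer protein of the family, was at 35.1 and 34.0 FPKM and at 60.9 and 89.8 FPKM on day 4, against 15.8 and 12.9 FPKM and 21.5 and 17.2 FPKM on day 0 (change 1.49 ± 0.19, limma adjusted p = 0.000124). BCL2L11, another such protein, rose by 1.15 ± 0.16 (adjusted p = 0.000241).

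Many genes of sterol synthesis and some of fatty acid and sugar metabolism fell. INSIG1, which senses sterols in the endoplasmic reticulum and is a target of SREBP factors, was at 36.9 and 49.3 FPKM in line 1 and 39.2 and 42.2 FPKM in line 2 on day 4, against 121 and 125 FPKM and 244 and 230.1 FPKM on day 0. The control lines stood at 161 to 356 FPKM on day 4 and at 104 to 232 FPKM on day 0, and the degron-specific change was -2.57 ± 0.20 (limma, adjusted p = 2.25e-06). Of 25 tested genes of cholesterol synthesis and uptake, 16 were called lower and 0 higher, with a median of -0.79. FASN, which builds palmitate, was at 48.3 and 62.1 FPKM and at 37.8 and 33.0 FPKM on day 4, against 112 and 137 FPKM and 148 and 159 FPKM on day 0 (change -1.70 ± 0.19, limma adjusted p = 4.64e-05). FADS1, a desaturase, fell by 1.86 ± 0.16 (adjusted p = 4.23e-06), and 7 of 17 genes of fatty acid synthesis were called lower and 1 higher. Of 26 genes of glycolysis and the pentose phosphate path 12 were called lower and 1 higher (21 and 2 with the block), with a median of -0.71. HK1, the first enzyme of glycolysis, fell by 0.98 ± 0.12 (limma, adjusted p = 9.69e-05). PFKM, the muscle type of phosphofructokinase, was the rise, at 11.6 to 15.2 FPKM in degron lines on day 4 against 5.46 to 6.99 FPKM on day 0 (change 0.94 ± 0.14, adjusted p = 0.000278).

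Several one-carbon enzymes fell. MTHFD1L, the mitochondrial enzyme that makes formate, was at 2.40 and 2.93 FPKM in line 1 and 1.497 and 1.595 FPKM in line 2 on day 4, against 14.7 and 11.98 FPKM and 15.2 and 9.04 FPKM on day 0, and at 20.7 to 36.5 FPKM in the control lines. Degron lines thus lay below the control lines on both days, and the change was -2.11 ± 0.25 (limma, adjusted p = 5.73e-05). SHMT2, which passes the serine carbon to folate in mitochondria, fell by 1.09 ± 0.15 (adjusted p = 0.000241), and PAICS, an enzyme of purine synthesis, by 1.16 ± 0.22 (adjusted p = 0.00187). Of 21 tested genes of serine, one-carbon and nucleotide synthesis 10 were called lower and 1 higher (16 and 1 with the block). SLC7A5, an amino acid transporter counted among ATF4 targets, was at 5.25 and 6.28 FPKM and at 6.08 and 7.65 FPKM on day 4, against 18.7 and 19.96 FPKM and 27.2 and 21.03 FPKM on day 0 (change -1.42 ± 0.25, limma adjusted p = 0.00132). It was 1 of 3 lower calls among 19 ATF4 and integrated stress genes (5 with the block). Respiratory chain and ATP synthase subunits had 3 of 28 called lower (10 with the block), with CYC1, a subunit of complex III, at -0.58 ± 0.13 (limma, adjusted p = 0.00496), and none of 13 mitochondrially encoded genes was called (4 higher with the block). MT-CO1, a subunit of complex IV, stood at 0.35 ± 0.14 (limma, adjusted p = 0.0811, or 0.0202 with the block). In limma 3 of 20 HIF targets were lower and 1 higher (9 and 1 with the block). CA9, a carbonic anhydrase induced by hypoxia, was at or below 0.277 FPKM in degron lines on day 4, against 1.40 to 7.75 FPKM on day 0 (change -2.12 ± 0.50, adjusted p = 0.0083).

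**Figure D2:**
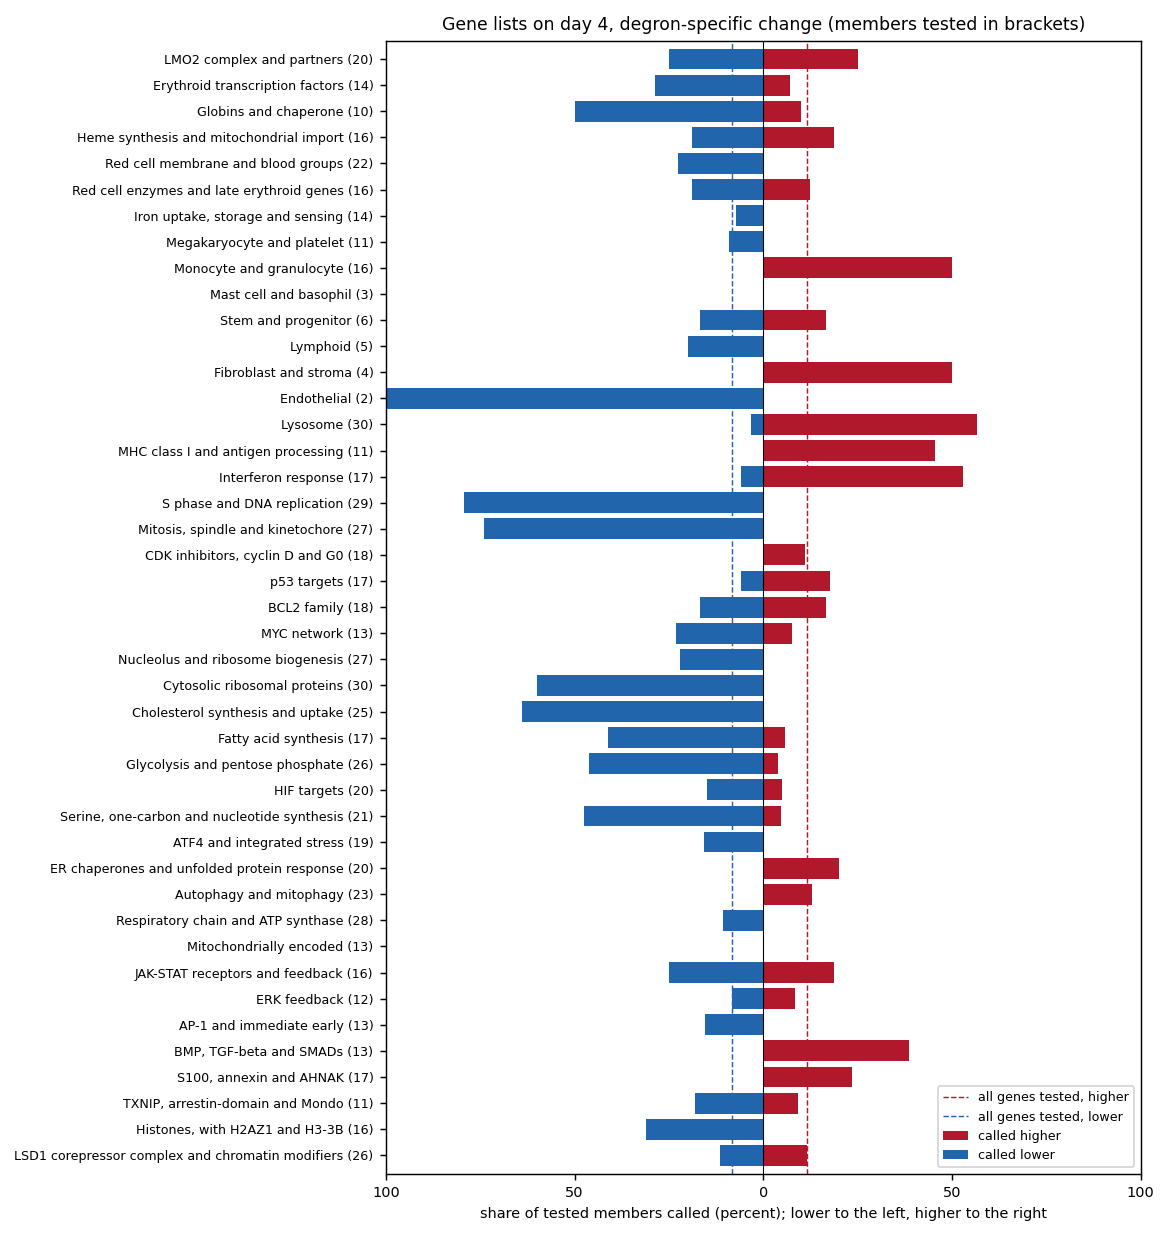
Share of the tested members of each of 43 gene lists called lower (to the left) or higher (to the right) on day 4, in percent, with the number tested in brackets; dashed lines mark the shares among all 15348 genes tested. Of 29 S phase genes 23 were called lower and of 30 lysosomal genes 17 higher, against 8.18% lower and 11.6% higher among all genes.

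Many lysosomal genes rose. Of 30 tested members, 17 were called higher and 1 lower (24 and 3 with the block), with a median of 0.82, against 11.6% higher among all genes tested. CTSC, a protease that activates granule enzymes of white cells, was at 44.3 and 63.2 FPKM in line 1 and 90.2 and 125 FPKM in line 2 on day 4, against 13.6 and 20.5 FPKM and 17.5 and 21.6 FPKM on day 0, and at 8.93 to 15.4 FPKM in the control lines. It rose by 1.93 ± 0.36 (limma, adjusted p = 0.00192). SCPEP1, a serine carboxypeptidase, was at 38.0 and 38.5 FPKM and at 57.7 and 54.9 FPKM on day 4, against 9.41 and 7.88 FPKM and 9.46 and 10.8 FPKM on day 0 (change 1.90 ± 0.21, limma adjusted p = 3.91e-05). CTSS, a protease that loads MHC class II in other cells, was at 32.8 and 31.5 FPKM and at 47.3 and 59.5 FPKM on day 4, against 8.63 to 10.1 FPKM on day 0 (change 1.78 ± 0.20, adjusted p = 3.93e-05). TPP1, a tripeptidase, rose by 1.31 ± 0.18 (limma, adjusted p = 0.000224), and CTSA, a protective carboxypeptidase, by 1.19 ± 0.19 (adjusted p = 0.000521). The lower call was GLA, an alpha-galactosidase named after its values were seen (-0.76 ± 0.17, limma adjusted p = 0.00532). Of 23 genes of autophagy 3 were called higher and 0 lower (7 and 1 with the block). SQSTM1, which carries cargo to autophagosomes, was at 51.0 and 70.3 FPKM and at 81.4 and 133 FPKM on day 4, against 28.6 to 32.7 FPKM on day 0 (change 1.09 ± 0.23, limma adjusted p = 0.00408). TFE3, a transcription factor of lysosomal genes, rose by 0.58 ± 0.11 (adjusted p = 0.00167). Among 20 chaperones of the endoplasmic reticulum and genes of the unfolded protein response 4 were called higher and 0 lower (7 and 0 with the block), with ERN1, a sensor of unfolded proteins, up by 0.70 ± 0.15 (limma, adjusted p = 0.00411).

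Several genes of monocytes and granulocytes rose from low levels. ITGAX, the integrin CD11c, was at 4.74 and 5.08 FPKM in line 1 and 11.1 and 14.1 FPKM in line 2 on day 4, against 0.999 and 0.705 FPKM and 1.65 and 1.48 FPKM on day 0, and at 0.0477 to 0.180 FPKM in the control lines. Its change was 2.01 ± 0.12 (limma, adjusted p = 3.17e-07). ITGAM, the integrin CD11b, was at 68.9 and 56.4 FPKM and at 60.8 and 58.6 FPKM on day 4, against 21.4 and 19.4 FPKM and 14.3 and 21.9 FPKM on day 0 (change 1.31 ± 0.22, limma adjusted p = 0.000806). In the control lines ITGAM stood at 1.22 to 6.23 FPKM, so degron lines were higher on both days. TYROBP, a signalling adaptor of myeloid receptors, rose by 1.61 ± 0.24 (limma, adjusted p = 0.00034). Of 16 tested members 8 were called higher and 0 lower, or 7 of 14 without CSF3R and CYBB, which passed the filter only through the degron samples of day 4. The other 19 of 35 members did not reach the filter, and 7 (CSF2RB, MPO, CD68, IRF8, NCF1, CD86 and LILRB4) were under 0.1 FPKM in all 16 samples. The summed level of the 35 was 225 to 300.2 FPKM in degron lines on day 4, 124 to 148 FPKM on day 0 and 73.7 to 124 FPKM in the control lines. In bulk RNA, more cells of a type and more RNA per cell cannot be told apart.

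Lists for other cells that a culture could hold had few tested members, and their part in the results was not tested. Megakaryocyte genes summed to 122 to 142 FPKM in degron lines on day 4, 98.2 to 133 FPKM on day 0 and 78.3 to 113 FPKM in the control lines, with 5 of 22 members, among them PF4 and GP9, under 0.1 FPKM throughout. Of 11 tested, GP6, a collagen receptor, was the 1 called gene (-1.10 ± 0.22, limma adjusted p = 0.00281), against 1 higher and 2 lower with the block. Without ITGB3 and PLEK, which passed the filter only through the degron samples of day 4, 1 of 9 was called lower and 0 higher. Of 3 tested mast cell and basophil genes 0 were called (2 lower with the block), with GATA2, a factor of early precursors, at -0.28 ± 0.32 (limma, adjusted p = 0.591), and CPA3, TPSAB1, TPSB2 and FCER1A were under 0.1 FPKM. In the lymphoid list CD3D was the 1 called gene of 5 tested (-1.88 ± 0.45, limma adjusted p = 0.00862). It changed by -0.80 within degron line 1, by -1.60 within line 2 and by 0.68 in the control lines. CD3D stood at 20.9 to 45.2 FPKM in degron lines on day 4 and 48.5 to 103 FPKM on day 0, against 7.07 to 29.5 FPKM in the control lines, so it was highest in degron lines before dTAGv1, and 8 of 18 lymphoid members were under 0.1 FPKM throughout. Stromal genes summed to 4.89 to 10.4 FPKM in degron lines on day 4 and to at most 4.84 FPKM elsewhere, with COL3A1, a collagen chain that passed the filter only through day 4, and SPARC called higher among 4 tested. SPARC was at 5.13 and 6.51 FPKM in line 1 on day 4, but at 0.379 and 0.632 FPKM in line 2, within the control range of 0.262 to 1.02 FPKM. Of 12 endothelial genes 2 were tested and both were called lower, EGFL7 and PLVAP,. The PLVAP call was lost in 5 of the 16 fits without 1 sample, 2 degron and 3 control samples (limma, adjusted p up to 0.0605). Endothelial genes summed to 21 to 50.7 FPKM on day 4 and 150.5 to 282 FPKM on day 0 in degron lines, and EGFL7 made up most of that, while CDH5 and KDR were under 0.1 FPKM. Of 6 tested stem and progenitor genes 1 was called higher, MSI2 (0.61 ± 0.14, limma adjusted p = 0.00642), and 1 lower.

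Some antigen presentation and interferon genes rose. PSMB10, a subunit of the immunoproteasome, was at 11.7 and 14.7 FPKM in line 1 and 16.3 and 19.8 FPKM in line 2 on day 4, against 4.22 and 6.03 FPKM and 6.57 and 8.29 FPKM on day 0, and at 3.09 to 5.47 FPKM in the control lines. Its change was 1.34 ± 0.16 (limma, adjusted p = 6.59e-05). Of 11 tested genes of MHC class I and antigen processing, 5 were called higher and 0 lower, with a median of 0.43. Of 17 interferon response genes 9 were called higher and 1 lower (12 and 1 with the block), or 8 and 1 of 15 without IRF9 and IFIT2, which passed the filter only through the degron samples of day 4. DDX58, the RNA sensor RIG-I, was at 3.84 and 2.88 FPKM and at 5.21 and 4.37 FPKM on day 4, against 1.16 to 1.45 FPKM on day 0 and 0.490 to 0.752 FPKM in the control lines. It rose by 1.12 ± 0.14 (limma, adjusted p = 7.58e-05). IFIT3, an interferon-induced binder of RNA, rose by 1.28 ± 0.18 (adjusted p = 0.000228), more in line 1 (6.497 and 6.016 FPKM on day 4) than in line 2 (1.96 and 1.63 FPKM), a difference that was not called. IFI35 rose by 1.37 ± 0.23 (limma, adjusted p = 0.000811) and IRF1, a transcription factor of interferon genes, by 0.94 ± 0.18 (adjusted p = 0.00241).

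Signalling genes among the rises included feedback and receptor genes. SOCS2, a feedback inhibitor of cytokine receptors, was at 64.0 and 64.3 FPKM in line 1 and 93.5 and 86.7 FPKM in line 2 on day 4, against 16.7 and 27.2 FPKM and 22.4 and 31.5 FPKM on day 0, and at 9.66 to 20.1 FPKM in the control lines (change 1.55 ± 0.32, limma adjusted p = 0.00356). CISH, a related inhibitor, rose by 0.80 ± 0.20 (adjusted p = 0.0117), and STAT5A, the factor these inhibitors answer to, fell by 1.00 ± 0.13 (adjusted p = 0.000164). Of 16 JAK-STAT genes 3 were called higher and 4 lower (5 and 5 with the block). SOSTDC1, a secreted antagonist of BMP and WNT signals, was at 75.2 and 101 FPKM in line 1 and 171 and 235 FPKM in line 2 on day 4, against 13.8 and 21.5 FPKM and 27.4 and 48.0 FPKM on day 0. In the control lines it ran from 2.15 to 5.25 FPKM, so degron lines were higher before dTAGv1 too, and its change was 2.13 ± 0.38 (limma, adjusted p = 0.00132). BMPR2 and BMPR1A, receptors for BMP, rose by 0.79 ± 0.18 and 0.59 ± 0.14 (limma, adjusted p = 0.00537 and 0.0066), and 5 of 13 tested genes of BMP, TGF-beta and SMADs were called higher and 0 lower. ANXA6, a calcium-dependent membrane binder, rose by 1.06 ± 0.16 (adjusted p = 0.000465) as 1 of 4 higher calls (6 with the block) among 17 S100, annexin and AHNAK genes. ETV4, a factor downstream of ERK, fell by 1.70 ± 0.33 (limma, adjusted p = 0.00231), and FOSL1, an AP-1 subunit, by 1.68 ± 0.36 (adjusted p = 0.0049). Of 12 ERK feedback genes 1 was higher and 1 lower (2 and 1 with the block). Of 13 immediate early genes 2 were lower. Among 26 chromatin modifiers 3 were higher and 3 lower (9 and 7 with the block), with DNMT3B, a DNA methyltransferase, at -1.61 ± 0.18 (limma, adjusted p = 5.18e-05) and TET2, which oxidises methylated DNA, at 0.73 ± 0.16 (adjusted p = 0.00451).

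The 12 largest rises were ALAS1, SYT10, STAP1, SOSTDC1, P2RX6, CCL24, ARRDC4, CTSC, SCPEP1, PLD3, ABCA8 and CTSS, with adjusted p from 3.26e-05 to 0.0208 in limma. SYT10, a calcium sensor of vesicle release, was at 21.6 and 18.1 FPKM in line 1 and 28.3 and 28.1 FPKM in line 2 on day 4, against 3.66 to 5.21 FPKM on day 0 in degron lines and 2.58 to 4.12 FPKM in the control lines. It rose by 2.28 ± 0.28 (limma, adjusted p = 7.73e-05). PLD3, an exonuclease of the lysosome, was at 237 and 292 FPKM and at 362 and 496 FPKM on day 4, against 66.8 and 66.5 FPKM and 88.2 and 120.1 FPKM on day 0 (change 1.89 ± 0.24, limma adjusted p = 0.000117). The control lines had 20.6 to 39.0 FPKM of PLD3. For 7 of these 12 genes every degron sample was above every control sample already on day 0. The share of all genes tested with such a gap is not given here, so this count lacks a background. STAP1, an adaptor of B cell signalling, was at 14.8 to 28.4 FPKM in degron lines on day 4, 1.497 to 2.528 FPKM on day 0 and 0.134 to 1.56 FPKM in the control lines (change 2.24 ± 0.28, adjusted p = 0.000117). CCL24, a chemokine for eosinophils, rose by 1.97 ± 0.33 (limma, adjusted p = 0.00091), and P2RX6, an ATP-gated channel subunit, by 2.03 ± 0.22 (adjusted p = 3.26e-05). ARRDC4, an arrestin-domain protein that restrains glucose uptake, changed by 1.94 ± 0.54 (adjusted p = 0.0208). Its call was lost without replicate 1 of degron line 1 on day 0 (limma, adjusted p = 0.0507) or on day 4 (0.0521), and of degron line 2 on day 0 (0.052) or on day 4 (0.0558). In its list of 11 TXNIP, arrestin-domain and Mondo genes 1 was called higher and 2 lower (4 and 2 with the block). IGFBP5, a secreted binder of insulin-like growth factors, was named after its values were seen. Among these 16 samples it passed 1 FPKM only in the degron samples of day 4, so it had to be higher there to be tested. It was at 7.59 and 7.46 FPKM in line 1 and 4.65 and 4.56 FPKM in line 2 on day 4 and at most 0.471 FPKM in the other 12 samples (change 2.36 ± 0.13, limma adjusted p = 2.08e-07).

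**Figure D3:**
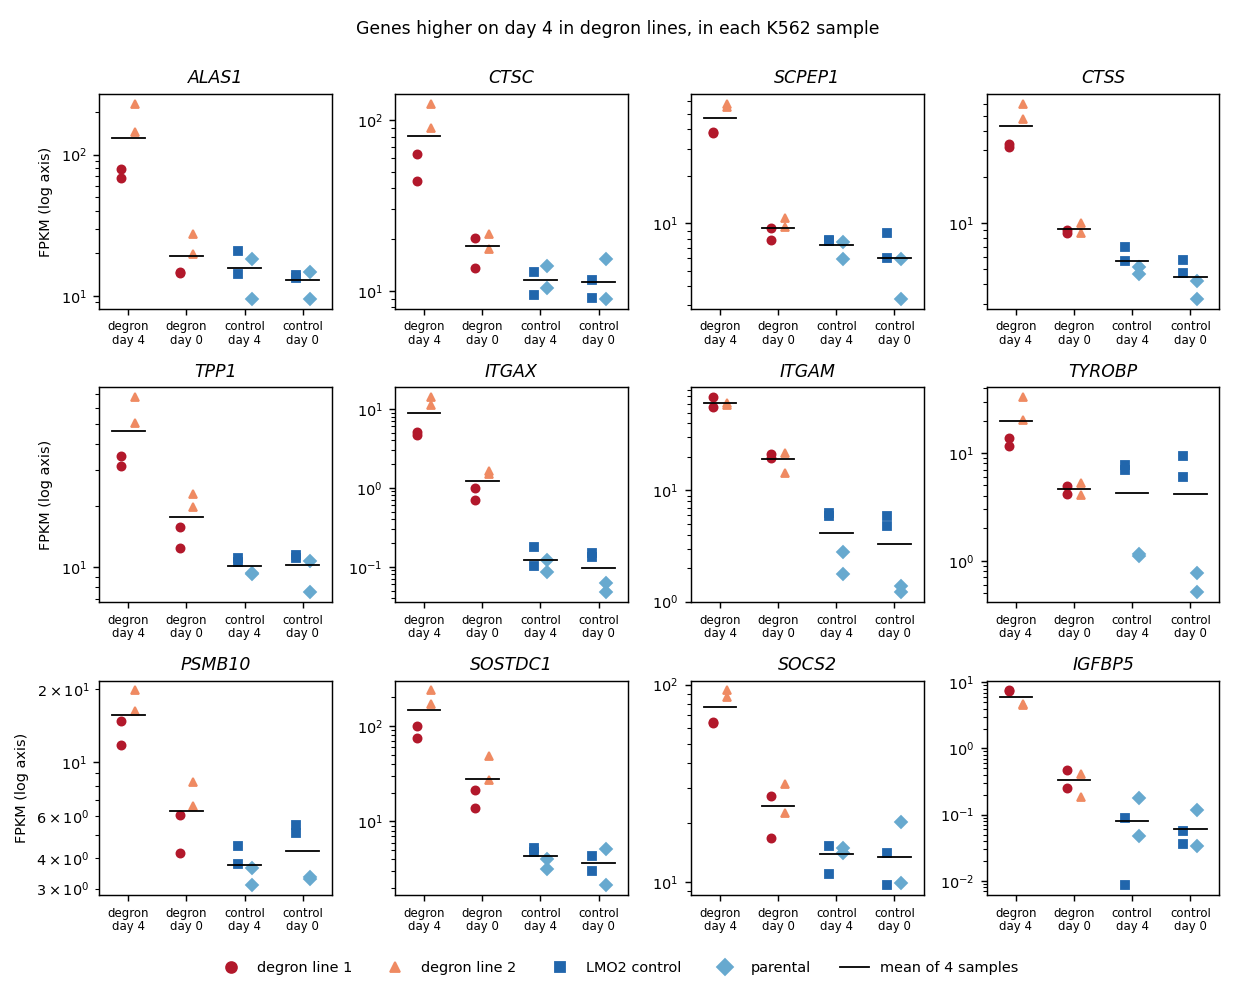
FPKM on a log axis of 12 genes called higher on day 4, in each of the 16 samples, with degron lines on day 4 and day 0 and control lines on day 4 and day 0 from left to right; symbols mark the line and bars the mean of 4 samples. ITGAX, ITGAM, SOSTDC1, CTSS and TPP1 were above the control lines already on day 0. IGFBP5 was at least 0.1835 FPKM in degron lines on day 0, against at most 0.179 FPKM in the control lines. It was at most 0.471 FPKM outside the degron samples of day 4.

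Of the 3040 called genes 3021 changed in 1 direction in both degron lines, which is likely for calls made on the mean of these lines. Within line 1 alone 3064 genes changed from day 0 to day 4 (2096 higher, 968 lower), and within line 2 alone 3814 (2303 higher, 1511 lower), by limma at an adjusted p under 0.05. Among the 1256 genes called lower, the median change within line 2 was -0.86 and within line 1 -0.65, and line 2 had the larger change for 1027. Among the 1784 called higher, the medians were 0.75 in line 2 and 0.71 in line 1, and line 2 had the larger change for 1103. When the difference itself was tested, 2 of 15348 genes (0.013%) were called, and 471 had an unadjusted p under 0.05 in limma, with 4 called under the bio rep block. PDE11A, a phosphodiesterase of cyclic nucleotides, was at 0.460 and 0.375 FPKM in line 2 on day 4, against 0.237 and 0.241 FPKM on day 0, and at 19.2 and 15.4 FPKM in line 1 on day 4, against 1.63 and 2.13 FPKM on day 0. The control lines stayed at 0.0590 to 0.326 FPKM, and the change in line 2 minus that in line 1 was -2.47 (limma, adjusted p = 7.66e-05). SLITRK6, a membrane protein of neurons, passed the filter only through line 2 on day 4, so it had to be higher there to be tested. It was at 2.79 and 3.46 FPKM in line 2 on day 4, against 0.165 and 0.164 FPKM on day 0, and at 0.404 and 0.584 FPKM in line 1 on day 4, against at most 0.0565 FPKM on day 0 (difference 1.30, limma adjusted p = 0.025). Without 1 sample the SLITRK6 call was kept in 1 fit of 16, that without degron line 2 day 4 replicate 1 (limma, adjusted p = 0.0218), and lost in the others (0.0501 to 0.226). KLF1 differed by -1.47 between the lines, with an adjusted p in limma of 0.349, or 0.0075 with the block.

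**Figure D4:**
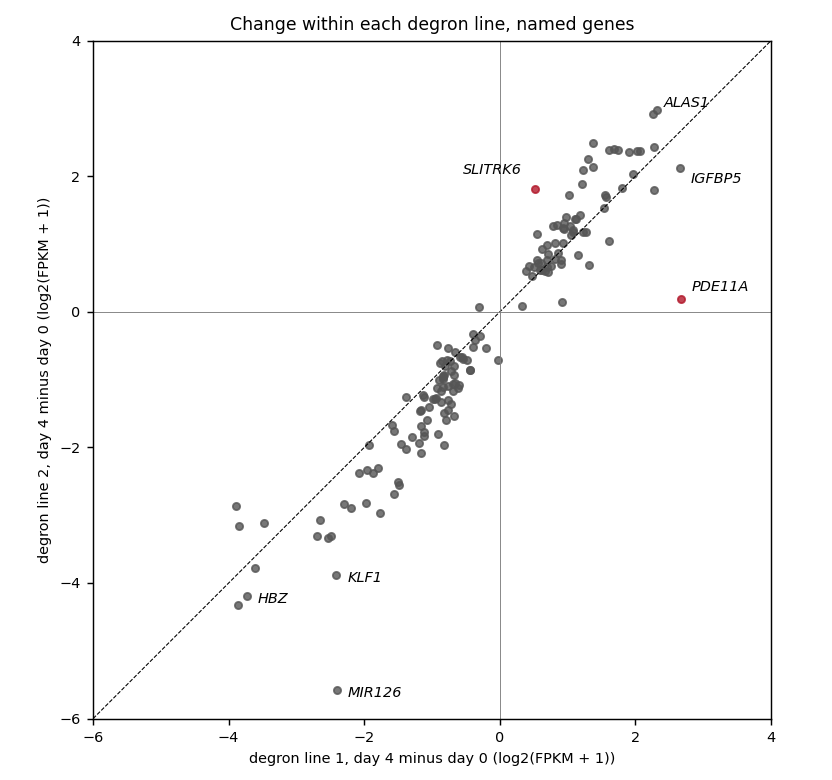
Change from day 0 to day 4 within degron line 2 (vertical) against that within degron line 1 (horizontal), in log2(FPKM + 1), for the 159 named genes; the dashed line marks equal change and red points the 2 genes called for the difference. PDE11A changed by 0.19 in line 2 and 2.67 in line 1, and SLITRK6 by 1.82 in line 2 and 0.52 in line 1.

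The LDB1 shRNA samples of the series show the same genes after loss of the LMO2 partner, in K562 cells with 1 sample for each of 2 LDB1 shRNAs and 1 with a control shRNA. With 1 sample a group there is no test, and the deposited TPM are read as log2 ratios of TPM + 1 over the control shRNA. Both ratios of a gene use the same control sample, so their likeness is no separate support. LDB1 was at 62.4 TPM with shRNA 1 and 69.6 TPM with shRNA 2, against 468 TPM with the control shRNA. LMO2 was lower too, at 44.2 and 46.2 TPM with the LDB1 shRNAs, against 131 TPM with the control shRNA. KLF1 was at 111 TPM with shRNA 1 and 165 TPM with shRNA 2, against 531 TPM with the control shRNA, and HBZ at 432 and 771 TPM, against 3781 TPM. ALAS1 was at 81.9 and 80.1 TPM with the LDB1 shRNAs, against 39.3 TPM, and CTSC at 110.1 and 70.2 TPM, against 21.1 TPM. All 12 of the largest rises on day 4 had ratios above 0 with both shRNAs, from 0.46 (SCPEP1, shRNA 2) to 4.26 (ARRDC4, shRNA 1). Over the 11161 genes listed and tested that reached 5 TPM in any of the 3 samples, the median ratios were 0.16 with shRNA 1 and 0.12 with shRNA 2. A ratio above 0 was thus the more frequent sign with each shRNA. Of the 12 largest falls 10 were listed, and 7 had ratios below 0 with both shRNAs. The other 3, EGFL7, INSIG1 and CFAP161, had ratios above 0 with both. How many of all genes had ratios above 0, or below 0, with both shRNAs is not given here, so these sign counts lack a background. IGFBP5 was at 80.0 and 49.7 TPM with the LDB1 shRNAs, against 0.179 TPM with the control shRNA.

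Among genes that reached 5 TPM in any of the 3 samples, 307 of the 1379 genes called higher on day 4 were at least 2-fold higher with both LDB1 shRNAs (22.3%), against 7.76% of all 11161 genes listed and tested, and these 307 were 35.5% of all genes so raised. Of the 1038 genes called lower on day 4, 53 were at least 2-fold lower with both (5.11%), against 2.03% of all, and these were 23.3% of all genes so lowered. A further 39 of the 1038 were at least 2-fold higher (3.76%), and 3 of the 1379 were at least 2-fold lower. The gene groups named above were not alike in this respect. SPTB (-2.23 and -1.65), HEMGN (-2.69 and -1.81) and GFI1B (-1.86 and -1.44) had low ratios with shRNA 1 and shRNA 2. MCM7 (-0.48 and -0.21), AURKA (0.13 and 0.27) and TK1 (0.44 and 0.73), which fell on day 4 of LMO2 degradation, had small ratios or ratios above 0, and so had DHCR7 (0.35 and 0.66) and FASN (0.18 and 0.24). MYC stood at -1.30 and -0.71. ITGAX (4.83 and 4.49) and CDKN1A (4.10 and 4.12) had high ratios, and their change on day 4 was 2.01 for ITGAX and 1.37 for CDKN1A. Sizes cannot be ranked between ratios of TPM + 1 and changes in log2(FPKM + 1). CD3D (2.61 and 2.71) and CA9 (3.33 and 3.65) were higher with both LDB1 shRNAs but fell in degron lines.

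**Figure D5:**
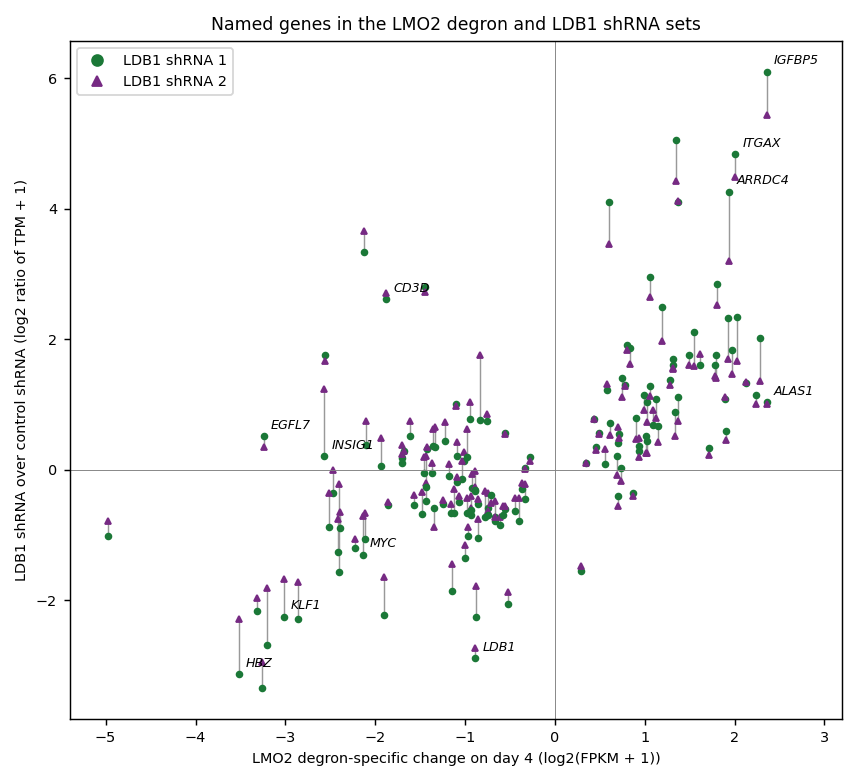
Log2 ratio of TPM + 1 of each LDB1 shRNA sample over the control shRNA sample (vertical; circles shRNA 1, triangles shRNA 2, joined for each gene) against the degron-specific change on day 4 in log2(FPKM + 1) (horizontal), for the named genes listed in both tables. KLF1 and HBZ were low on both axes and IGFBP5 and ITGAX high on both, while EGFL7 and CD3D fell on day 4 with LDB1 ratios above 0.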

How the data were processed

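RNA-seq of K562 cells was analysed from FPKM that the authors deposited for 24 samples of the LMO2 degron set (12 groups of 2) and from TPM that the authors deposited for 3 LDB1 shRNA samples. FastQC, STAR, featureCounts and build hg19 are named per the submitters' processing notes, and their versions, roles and the annotation are not given in the sources used here. No column lacked a sample (0 left out).

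Genes with at least 1 FPKM in 2 samples were fitted as log2(FPKM + 1) in limma 3.58.1 (R 4.3.3, trend and robust settings) with a mean for each line and day, with no block. On this scale changes of low genes are understated. FPKM are not counts, so no count test was run. Depth (17.2 to 24.4 in units of 1000000 fragments) came from the smallest steps of low values. The labels do not say that bio reps are separate cultures, so p-values measure the spread between these samples, which may be technical. The bio rep numbers pair the samples by their deviations from the group means: over 66 pairs of groups the correlation ran from 0.119 to 0.662 (median 0.377).

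The members and lists were chosen with earlier results of these data known. Named genes were LMO2, LDB1, TAL1, KLF1, HBZ, ALAS1 and CTSC, the 12 largest rises and falls with a mean of at least 5 FPKM and 1 sign in both degron lines, up to 4 called members per list by smallest adjusted p (where none was called, the tested member of highest mean), and genes called for the line difference. IGFBP5, CDC42EP1, MYB, HBA1, HBA2 and GLA were named after their values were seen. Alternatives were another pseudocount, other filters, a rescaling, the block, other sample sets, single lines or controls, and each sample left out. The fit was tested on simulated data. Some results are not reported here.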

Additional observations from a re-analysis of the deposited data

Results flagged for a closer look

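The changes from day 0 to day 4 differed between the degron lines, by the test of the difference itself, for PDE11A (line 2 minus line 1: -2.47, limma adjusted p = 7.66e-05) and SLITRK6 (1.30, limma adjusted p = 0.025). The PDE11A call was lost with a pseudocount of 0.1 (adjusted p = 0.787). SLITRK6 reached the filter only in line 2 on day 4.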

How the results depend on the processing

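The count of 3040 called genes (1784 higher, 1256 lower) came to 5471 (3080, 2391) with the bio rep block, which pairs samples by number, and to 5326 (2866, 2460) with lines as replicates. It was 1774 in all and 783 higher at a mean of at least 5 FPKM, 1398 (892, 506) with degron line 1 alone, 1763 (968, 795) with parental cells as the only control, 1675 (1036, 639) with the LMO2 control line as the only control, 1524 (883, 641) at an adjusted p under 0.01, and 8315 (4840, 3475) on day 4 alone without day 0. With degron line 2 alone 1178 were higher. Without 1 sample the count ran from 2362 to 3312 (1349 to 1976 higher, 977 to 1336 lower). The line difference gave 2 calls, 4 with the block, 1 with a pseudocount of 0.1, 59 with no filter, 0 at a mean of at least 5 FPKM, 1 with 16 samples only, 1 at an adjusted p under 0.01, and 1 to 3 without 1 sample. On day 4 alone CFAP161 (0.229), GATA2 (0.119), CD3D (0.847), BOK (0.155) and EGLN3 (0.254) were positive, and so was GATA2 (0.062) with degron line 1 alone. The cause was not tested. Of 155 called named genes 131 kept the call without any 1 sample. Trimmed-mean rescaling gave 2908 calls (1596 higher, 1312 lower). Its factors were 1.020 to 1.104 in degron samples of day 4 and 0.936 to 1.036 in the other samples of days 0 and 4. It left 158 of 159 named genes on their side of the threshold and lost UQCRC1 (limma, adjusted p = 0.0606). The block added the day 4 call of MT-CO1 and the line difference of KLF1 (limma, adjusted p = 0.0075). No other call of the 159 named genes changed, while HBE1, which is not among them, was called only with the block. The LDB1 values have no replicate, and low FPKM limit genes near the filter.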
